A study of Drosophila melanogaster with 4 samples.

Results

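The regions described here are stretches of chromosome arm 3L that were enriched in chromatin immunoprecipitation (ChIP) for RPD3 in Drosophila melanogaster embryos. They were taken from the lists of enriched regions by position alone: every region on 3L whose midpoint lay between 1 and 22.5 Mb, a stretch of 21.5 Mb that leaves out 1 Mb at the telomere side and 2.04 Mb at the centromere side of the arm. ChIP replicate 1 had 1173 such regions of 7041 in its whole list, ChIP replicate 2 had 1245 of 7654, and a further list deposited for the series, called the combined list here, had 3180 of 19364. Positions are on FlyBase release 5, with the first base as 1. No region marked as depleted lay on 3L (0 in each list).

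All libraries came from wild-type embryos of the strain Oregon-R, 14 to 16 h old. There were 2 ChIP libraries, for which the RPD3 antibody Q3451 was used, and 2 input libraries, and the labels assigned 1 input to each replicate list. There was no other genotype, stage or treatment, and whole embryos mix all cell types, so a region held in few cells cannot be told apart from one held weakly in many. Library depth is unknown because no read numbers were listed. Nothing in the labels tells whether separate embryo collections were used, so the SD over n = 2 may measure technical spread only.

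RPD3 is the fly counterpart of HDAC1 and HDAC2 of mammals, enzymes that remove acetyl groups from histone tails. It has no known DNA-binding domain of its own and is brought to chromatin within complexes, among them those built on Sin3, on Mi-2 (NuRD) and on CoREST, which are best known for repressing transcription. RPD3 is also known to sit at active promoters and enhancers, so an enriched region alone does not say whether the DNA there is active or silent. The gene that encodes RPD3, named HDAC1 in the RefSeq gene table, lies on 3L itself. The genes and sequences under the regions were not analysed here, since neither an annotation nor a genome of release 5 was used.

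RPD3 regions covered a small part of the inner arm, in short blocks. There were 1209 ± 50.9 regions (SD, n = 2), or 56.2 ± 2.37 per Mb, and they covered 12.9% ± 1.03 of the stretch, with 2.62 Mb in replicate 1 and 2.93 Mb in replicate 2. Replicate 1 had a median width of 1832 bp and replicate 2 of 1924 bp, and the narrowest region was 1301 bp wide in each. Regions over 5 kb were few, with 40 in replicate 1 and 58 in replicate 2. Scores, which are the authors' and are read here as the log2 of ChIP over input, had medians of 0.77 in replicate 1 and 0.76 in replicate 2, which is 1.71-fold and 1.70-fold on a linear scale. The highest score was 1.53 in replicate 1 and 1.68 in replicate 2. Wider regions scored higher: the median width in replicate 1 was 1550.5 bp in the lowest score quartile and 2898 bp in the highest, and the same quartiles of replicate 2 had 1560 and 3120 bp. The combined list was denser, with 147.9 regions per Mb that covered 31.3% of the stretch. Its regions had a median width of 1569 bp, and their median score was 0.51. Its regions that both replicates overlapped had a median score of 0.65, while shared regions had 0.80 in each replicate. The scores of different lists need not be on the same scale, so the lower score cannot be read as weaker enrichment.

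Signal went on across the limits of the stretch. At the telomere side, the last region outside in replicate 1 ran from 993770 to 995656 with a score of 0.76, and the first inside from 1003261 to 1004785 with 0.85. In replicate 2 the corresponding scores were 0.90 and 1.24. At the centromere side, the last region inside scored 0.73 in replicate 1 and 0.87 in replicate 2, and the first outside scored 0.95 and 0.56.

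The profile along the arm was uneven, and both replicates followed the same course. In the 43 bins of 500 kb, replicate 1 had between 4 and 63 regions per bin, with a median of 27, and replicate 2 had between 6 and 64, with a median of 28. The counts of the replicates had a Pearson correlation of 0.95 and a Spearman correlation of 0.94 over these bins, a description of one pair of libraries that share the genome sequence. The median difference between the replicates was 2 regions per bin. Replicate 2 had more regions in 31 bins, replicate 1 in 10, and 2 bins were equal.

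**Figure D1:**
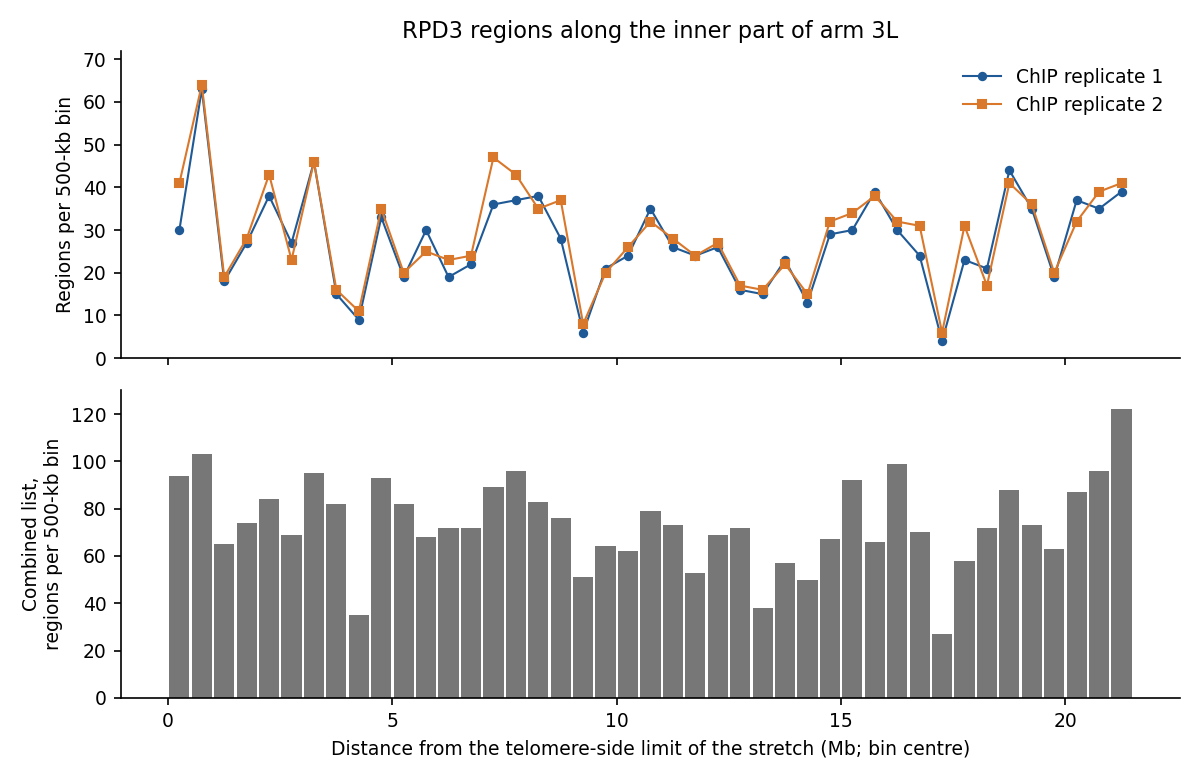
Number of RPD3 regions in each of 43 bins of 500 kb against the distance of the bin centre from the telomere-side limit of the 3L stretch (Mb); the upper panel shows ChIP replicate 1 (circles) and ChIP replicate 2 (squares), the lower panel the combined list (bars). The replicates peak together at 63 and 64 regions in the second bin and fall together to 4 and 6 in the bin that starts 17 Mb from the limit, while the combined list is highest, at 122, in the last bin.

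The densest bin lay near the telomere side, between 1.5 and 2 Mb. It held 63 regions of replicate 1 and 64 of replicate 2, which covered 30.9% and 31.5% of the bin. Its neighbours were much sparser, with 30 and 41 regions in the bin before it and 18 and 19 in the bin after it. Within it, the 100-kb windows that start at 1.6 and 1.7 Mb carried the peak, with 16 and 17 regions in the first of them and 17 and 16 in the second. The next densest bins named here lay between 3 and 8.5 Mb, apart from that at 19.5 to 20 Mb. The bin from 4 to 4.5 Mb had 46 regions in each replicate, that from 19.5 to 20 Mb had 44 and 41, that from 8 to 8.5 Mb had 36 and 47, and that from 3 to 3.5 Mb had 38 and 43. The bin from 8 to 8.5 Mb was the one of these 5 in which the replicates differed most, also in median score, with 0.85 in replicate 1 and 0.69 in replicate 2.

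The sparsest bin began at 18 Mb. It held 4 regions in replicate 1, which covered 1.71% of it, and 6 in replicate 2, which covered 2.44%. It stood between bins of ordinary density, with 24 and 31 regions before it and 23 and 31 after it. The bin from 10 to 10.5 Mb followed, with 6 and 8 regions, and it had a single region of the combined list that both replicates overlapped, with a score of 0.28. The bin from 5 to 5.5 Mb had 9 and 11 regions, that from 15 to 15.5 Mb had 13 and 15, and those from 4.5 to 5 Mb and from 14 to 14.5 Mb tied, with 15 and 16 each. The bin from 4.5 to 5 Mb lay directly after one of the 5 densest bins, which held 46 regions in each replicate.

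Sparse bins were not always low in score. The median score of the bin from 5 to 5.5 Mb was 0.90 in replicate 1 and 0.91 in replicate 2, the highest of all 43 bins in each replicate. These medians rest on 9 and 11 regions, and a median of few regions can be extreme by itself. Over the 43 bins, the mean count had a Spearman correlation of -0.10 with the mean of the replicates' median scores. The bin from 10 to 10.5 Mb was sparse and low, with median scores of 0.66 and 0.70, and the former was the lowest bin median of replicate 1. Those medians rest on 6 and 8 regions. Over longer stretches the counts were more even. The telomere-side 7.17 Mb of the stretch held 403 and 428 regions in replicates 1 and 2, the middle 7.17 Mb 359 and 383, and the centromere-side 7.17 Mb 411 and 434. The middle part was lowest in each replicate, and its count in replicate 2 was below the count of either other part in replicate 1.

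The combined list had the same lowest bin as the replicates and a different peak. Its lowest bin was that from 18 to 18.5 Mb, with 27 regions, followed by that from 5 to 5.5 Mb, with 35. Its highest was the last bin, from 22 to 22.5 Mb at the centromere side, with 122 regions, against 103 in the densest bin of the replicates. The replicates had 39 and 41 regions in that last bin. The combined counts had a Spearman correlation of 0.76 with the mean of the replicate counts over the 43 bins.

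Most regions of inner 3L recurred between the replicates. In replicate 1, 860 of the 1173 regions (73.3%) shared at least 1 bp with a region of replicate 2, beside 72.7% over all sequences. In replicate 2, 837 of the 1245 regions (67.2%) did so, beside 64.6% over all sequences. Inner 3L was thus close to the whole lists in this respect. Regions of the other replicate covered 13.6% and 12.2% of the stretch. Shared regions were wider than unshared ones, with median widths in replicate 1 of 2079.5 bp for shared and 1445 bp for unshared regions. In replicate 2 they were 2259 and 1504.5 bp, and width by itself raises overlap. The shared part of replicate 1 was 67.7% in the lowest score quartile, 64.8% in the second and 88.1% in the highest, and that of replicate 2 was 50.6%, 57.6% and 91.6%.

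Shared regions with a single partner lay close to it. In 714 cases 1 region of replicate 1 and 1 of replicate 2 overlapped each other and no other region, and their midpoints lay a median of 126.5 bp apart, with 90% of them within 703 bp. The starts differed by a median of 146 bp and the ends by 137 bp. The pairs were chosen by overlap, which by itself keeps these distances short. In 465 of the 714 pairs the region of replicate 2 was the wider. The median score difference of replicate 2 minus replicate 1 was 0.01, replicate 2 was higher in 370 pairs, and the SD of the difference was 0.15. The scores had a Pearson correlation of 0.76 over the 714 pairs, and the widths a Spearman correlation of 0.74. Differences above 0.3 were found in 31 pairs. The most unlike pair lay close to the centromere side, where the region of replicate 1 from 21168182 to 21170187 scored 0.63 and that of replicate 2 from 21168035 to 21170594 scored 1.16.

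**Figure D2:**
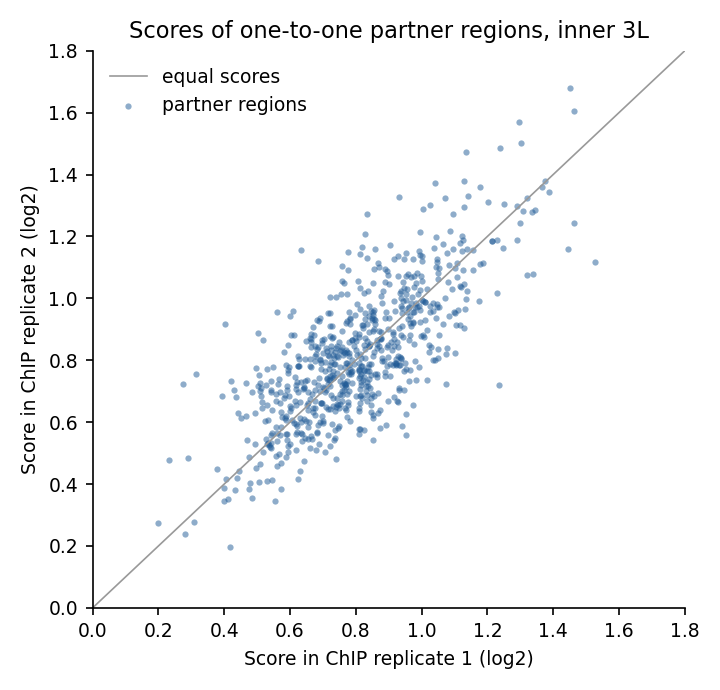
Score of ChIP replicate 2 against score of ChIP replicate 1 (both log2) for the 714 pairs of regions that overlap each other and no other region; each point is a pair and the line marks equal scores. The points lie on both sides of the line, with a median difference of 0.01 and an SD of 0.15.

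Some strong regions were found in 1 replicate only. In replicate 2 the region from 8784474 to 8786129 scored 1.59, the third highest of that list on the stretch, and the nearest region of replicate 1 was 34160 bp away. The combined list had a region there with a score of 1.01. The next unshared regions of replicate 2 were from 18051163 to 18052720, with 1.28, and from 2678441 to 2680638, with 1.18. In replicate 1 the strongest unshared region, from 9123332 to 9124688, scored 1.20, with a region of replicate 2 only 1761 bp away. That from 21914978 to 21916361 also scored 1.20 and had no counterpart in the combined list (0 regions). These regions were named after their values were seen.

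Each replicate had a region at 763 (24.0%) of the 3180 combined-list regions, beside 23.1% over all sequences, and neither had one at 1764 (55.5%), beside 55.2% over all sequences. The 763 regions seen in both replicates were 3403 bp wide at the median, with a median score of 0.65, and those seen in neither were 1260 bp wide, with 0.49. The lists differed in their narrowest regions on the stretch, 1001 bp in the combined list and 1301 bp in each replicate. The median region seen in neither was thus narrower than any region of the replicates. How far this lowered the support was not tested. Both replicates supported 9.05% of the regions that scored 0.4 or less, 94.1% of those between 0.8 and 1, and 79.7% of those above 1. The median widths of these groups were 1410, 4337.5 and 3953.5 bp, and width by itself raises overlap. Shares by score were not counted over all sequences. The lists need not be independent, since no source used here describes the making of the combined list.

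The highest scores of the combined list belonged to regions that neither replicate listed. Of the 64 combined-list regions with scores above 1, 12 were overlapped by neither replicate. The matching share over all sequences was not counted. Whether the inner arm differs from the whole combined list in this respect is thus unknown. The first of the 12 was from 20326246 to 20327374, with a score of 2.33. It was followed by 5457854 to 5459722 with 2.11 and 18509074 to 18510490 with 1.87. The highest score among regions seen in both replicates was 1.43, and 5 of the 12 lay above it. The 12 were narrow, from 1001 to 1871 bp, whereas the narrowest region above 1 that both replicates overlapped was 1993 bp wide. Narrowness was not particular to the 12. Their median width was 1122.5 bp, beside 1260 bp for all combined-list regions that neither replicate listed. The replicate lists held no region under 1301 bp on the stretch. Some of the 12 were wider than that, with widths of 1869, 1417, 1871 and 1861 bp. They include the regions that scored 2.11 and 1.87. Whether read number or sequence content differed at these sites was not tested.

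The strongest regions were ranked by the mean percent rank of their scores in both replicates, among the 763 regions seen in both. The first, from 19542049 to 19547196, scored 1.45 in replicate 1 and 1.68 in replicate 2, a mean of 1.57 ± 0.16 (SD, n = 2). The second, from 4136719 to 4140781, scored 1.46 and 1.60, and it had the highest combined-list score of the 763, 1.43. Both regions were among the 4 highest scores of each replicate on the stretch. The third, from 12115549 to 12119892, scored 1.30 and 1.57, and the fourth, from 18709890 to 18711882, scored 1.30 and 1.50. The fourth was the narrowest of the 10, at 1993 bp, and a combined-list region that neither replicate listed, with a score of 1.17, ended 1033 bp before it.

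Below these, the replicates gave nearly equal scores at several places. The region from 16103149 to 16108412 scored 1.38 in each replicate, that from 3068875 to 3072305 scored 1.39 and 1.35, and that from 20464951 to 20470493 scored 1.37 and 1.36. The region from 4624986 to 4629047 scored 1.24 and 1.49 and lay in the sparse bin from 4.5 to 5 Mb. The last of the 10 were 11700195 to 11705281, with 1.32 in replicate 1 and 1.33 in replicate 2, and 1033318 to 1036515, with 1.46 and 1.24. The replicates differed by up to 0.27 among the 10, while their mean scores ran from 1.32 to 1.57, so the order within the 10 was not resolved. Each of the 10 was a single region in each replicate. The highest score of replicate 1 on the stretch, 1.53 from 8458038 to 8461630, was not among the 10.

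**Figure D3:**
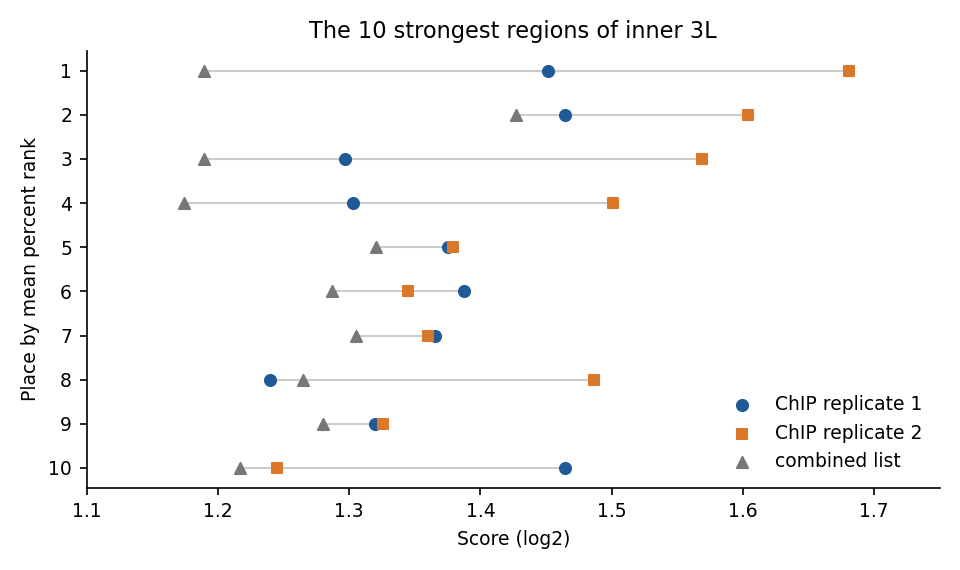
Scores (log2) of the 10 strongest RPD3 regions of inner 3L in ChIP replicate 1 (circles), ChIP replicate 2 (squares) and the combined list (triangles), from place 1 at the top to place 10; the axis does not start at 0. Replicate scores run from 1.24 to 1.68, and at places 5, 7 and 9 the replicate points nearly coincide.

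Of the 10 widest regions, 0 were among the 10 strongest. With 10 of 763 regions in either group, little overlap is to be expected from the numbers alone. The widest region had a mean percent rank of 95.67, just below the 96.24 of the last of the 10 strongest. The widest in the combined list ran from 5756808 to 5775611, over 18.8 kb, with a score of 1.11. Replicate 1 covered it with 2 regions, of 14038 and 3075 bp, and replicate 2 with 3, of 9117, 3848 and 3038 bp. The region of 14038 bp was the widest of the whole replicate 1 list on the stretch, with a score of 1.24, and the first region of replicate 2 there scored 1.36. The second widest, from 6733410 to 6751488, spanned 18.1 kb with 3 regions in each replicate, and its best scores were 1.39 and 1.14. The third, from 16573216 to 16588958, spanned 15.7 kb with 4 and 3 regions. Its core was placed almost alike in both, with replicate 1 spanning 16575279 to 16583070 and replicate 2 spanning 16575394 to 16583085, and scored 1.16 in each.

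The fourth, from 12515790 to 12530635, was wide and weaker, with best scores of 0.87 and 0.88, and replicate 1 covered 59.2% of it and replicate 2 79.7%. The fifth, from 1791997 to 1804996, lay in the densest bin and had best scores of 1.16 and 1.17. The other 5 of the 10 widest ran from 9355164 to 9367936, 4281060 to 4293640, 2255048 to 2267583, 13491847 to 13503349 and 17002600 to 17014020. Their best scores were between 0.95 and 1.21 in replicate 1 and between 0.91 and 1.31 in replicate 2. The widest single region of replicate 2 was elsewhere, from 19900763 to 19910423, 9661 bp wide with a score of 1.00. In all, 23 of the 763 regions were at least 10 kb wide, and 614 of the 763 (80.5%) held exactly 1 region of each replicate.

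**Figure D4:**
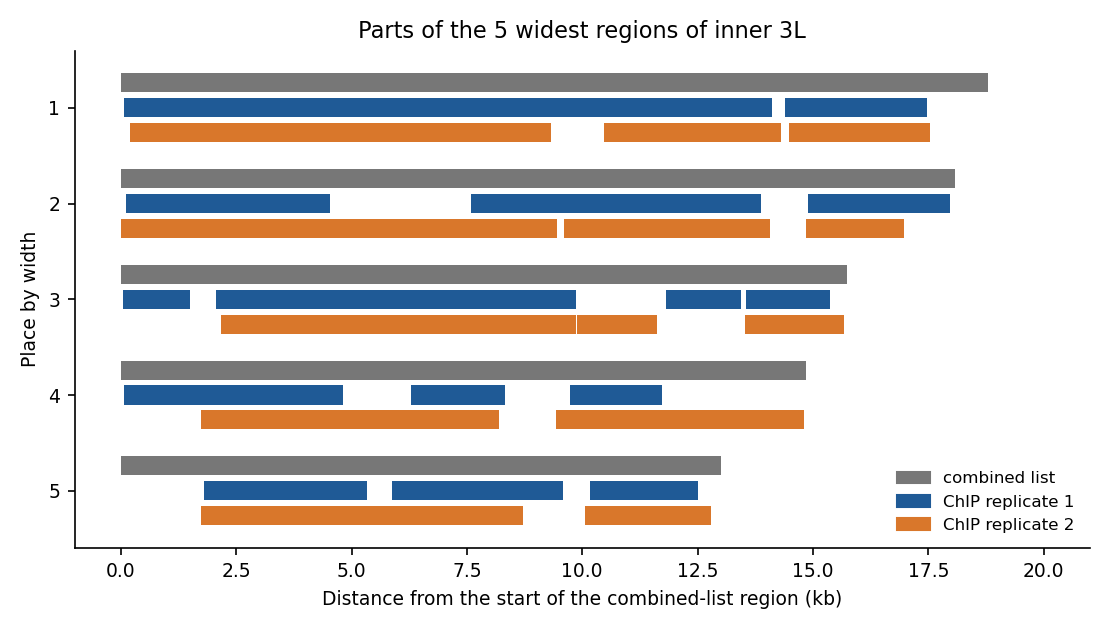
Extent of the 5 widest combined-list regions of inner 3L (top bar of each group) and of the regions of ChIP replicate 1 (middle) and ChIP replicate 2 (bottom) that overlap them, against the distance from the start of the combined-list region (kb). Each wide region, from 13.0 to 18.8 kb, is made of 2 to 4 regions in either replicate, and some of the breaks between them are at the same place in both replicates while others are in 1 replicate only.

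Regions stood close together in some places and far apart in others. The median gap from the end of a region to the start of the next was 5874 bp for replicate 1 and 5761 bp for replicate 2, or 5817.5 ± 79.9 bp (SD, n = 2), while the mean gap was 16104 and 14895 bp. Gaps under 1 kb made up 16.1% and 15.9% of all gaps. Gaps of at least 100 kb were rare, with 28 in replicate 1 and 18 in replicate 2, and they held 20.2% and 15.1% of all bases between regions. In the combined list the median gap was 2198 bp, and 2 gaps reached 100 kb.

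**Figure D5:**
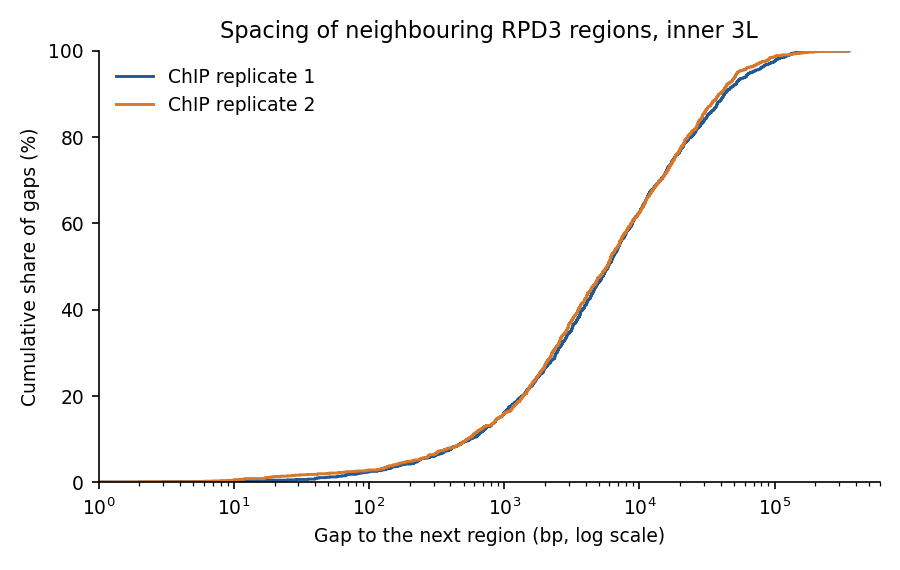
Cumulative share of gaps between neighbouring RPD3 regions (%) against gap length (bp, log scale) for ChIP replicate 1 and ChIP replicate 2 on inner 3L. The curves nearly coincide, with medians of 5874 and 5761 bp, and 28 and 18 gaps reach 100 kb.

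The longest interval free of regions in both replicates ran from 18228567 to 18581831, over 353.3 kb. It was 2.27 times as long as the next one. In replicate 1 it was entered from a region at 18227098 to 18228538 with a score of 0.48 and left at 18585426 to 18586751 with 1.05. In replicate 2 the region before it, from 18227082 to 18228566, scored 0.40, and the one after it, from 18581832 to 18583267, scored 0.63. The combined list placed 10 regions inside it, which covered 3.48% of its length. One of them was the region with the third highest combined-list score of the stretch, 1.87. The next free intervals ran from 15331335 to 15486908 (155.6 kb), from 5178580 to 5321869 (143.3 kb), from 13725147 to 13859077 (133.9 kb) and from 19342081 to 19474010 (131.9 kb). The combined list had 5, 8, 12 and 12 regions in them. The intervals of at least 100 kb numbered 11 and made up 7.43% of the stretch.

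Set beside the other large arms, inner 3L was denser than 2L and sparser than X, 3R and 2R in each replicate. The other arms were cut at the telomere and centromere sides by the same lengths. Inner 3L had 54.6 regions per Mb in replicate 1 and 57.9 in replicate 2, whereas 2L, 2R, 3R and X together had 59.4 and 65.2. The ratio was 0.92 in replicate 1 and 0.89 in replicate 2, a mean of 0.90 ± 0.02 (SD, n = 2). It was lowered by 2R, the densest of the other arms. In order of density, 2L was lowest with 47.4 and 51.5 per Mb and 3L followed. The X had 56.6 and 64.1, 3R 59.4 and 67.1, and 2R 75.8 and 79.0. The step from 3L to the X was 2.00 regions per Mb in replicate 1 and 6.18 in replicate 2. It had the same direction in each but an uneven size, which 2 replicates do not settle. In the combined list the order of 3L and the X was turned, with 141.4 regions per Mb on the X and 147.9 on 3L. There 3L was the middle arm, above 2L and X and below 3R and 2R. Regions of 1 library are not replicates, and no test of these differences was made.

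In median score 3L was close to the other autosomal arms. It was 0.77 and 0.76 on inner 3L, between 0.77 and 0.79 on 2L, 2R and 3R in replicate 1, and between 0.76 and 0.77 in replicate 2. On the X it was 0.96 and 0.94. Of the 3L regions, 4.86% in replicate 1 and 5.78% in replicate 2 were in the top 10% of their whole list by score, beside 5.17% to 6.55% and 5.80% to 7.68% on the other autosomal arms. The highest percent rank of an inner 3L region was 98.52 in replicate 1 and 99.11 in replicate 2, and 0 and 1 regions lay above 99. In the lowest 10% of the lists were 15.0% and 13.0% of 3L regions, beside 10.4% to 11.0% on the other autosomal arms in replicate 1 and 10.2% to 12.5% in replicate 2. The contrast between the densest and the sparsest 500-kb bin was 15.75 in replicate 1 and 10.7 in replicate 2 on 3L, 11.75 and 13.0 on 2L, and between 4.07 and 7.56 on 2R, 3R and X. This contrast rests on single bins. By the variance of the bin counts over their mean, 3L had 4.67 and 4.73. The X was alike, with 4.71 and 4.38, as was 2L, with 4.42 and 4.32. On 2R and 3R the values were between 2.61 and 3.63.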

How the data were processed

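The data were lists of enriched regions from 2 ChIP libraries of Oregon-R embryos and 1 list of the whole series; the 2 input libraries had no list of their own. Reads were aligned with Bowtie 0.12.7, per the submitters' processing notes, and coordinates are FlyBase release 5, per the file headers. No source used here gives the region caller, its thresholds or the way the combined list was made. The deposited score was taken as a log2 ratio of ChIP to input. The base was read from the values. Read as base 2, 75.7% to 100% of the 3L scores of a list stood to 1 reference score as a ratio of whole numbers. With base e or 10 at most 1.45% did so. The reference was the best of 40 scores tried per list and base (relative tolerance 1e-11, denominators up to 2000). That the ratio is of ChIP to input was read from the labels, which assigned 1 input to each replicate list. The values do not show it. Depth, which is unknown, can by itself change how many regions a list holds and how much they cover.

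Members were selected by midpoint. Overlap meant at least 1 bp; gaps ran from the end of a region to the next start; bins were 500 kb. Regions were named by rule: the 10 strongest and 10 widest, the 5 densest and 5 sparsest bins (ties by position), the 5 longest intervals free in both replicates, and the 3 highest-scoring and the widest region of each list. Where several regions of a replicate overlapped, the best score was used, which favours wide regions. Members and lists were chosen with earlier results of these data known. No test was made. The RefSeq gene table is of release 6 and served only to name the chromosome of 1 gene. Counting functions were tested on simulated data. Python 3.11.15, numpy 2.4.6, pandas 2.3.3, scipy 1.17.1 and matplotlib 3.10.9 were used.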

Additional observations from a re-analysis of the deposited data

How the results depend on the processing

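Beside counts, shares, medians and ratios from 1 replicate alone, which with 2 replicates lie within their SD by construction, there were 28 alternative values. The 28 include the rankings of the strongest regions by replicate 1 alone and by replicate 2 alone, and each of these rankings moved. Of the 28, 8 stayed within the spread between replicates, or for a count within 1.5 times, and 20 moved. Leaving out either replicate gave 1173 to 1245 regions, 12.2% to 13.6% covered, a density ratio to the other arms of 0.89 to 0.92, a median gap of 5761 to 5874 bp, a median score of 0.76 to 0.77 and a ratio of the densest to the sparsest bin of 10.7 to 15.75. The combined list gave 3180 regions, 31.3%, 0.94, 2198 bp, 0.51 and 4.52. Keeping scores at or above the list median gave 513.5 regions, 6.98%, 0.75, 16570 bp, 0.93 and 35.0, lower or higher by construction. The shared share was then 62.0% against 70.3%, where a region kept in 1 list loses any partner cut from the other. Against the full other list, 88.1% and 91.6% of the highest score quartile of replicates 1 and 2 were shared. The ratio of 0.75 includes the X, whose scores are higher; against the autosomal arms alone it was 0.88, an alternative chosen after seeing the data. The density ratio was 0.87 by covered length. Requiring 50% overlap of each region lowered the shared share to 61.3%. Merging regions within 200 bp lengthened the median gap to 6278 bp. Bins of 1 Mb lowered the ratio of densest to sparsest bin to 4.05, and bins of 250 kb gave none, since the lowest held 0 regions. Ranking by replicate 1 or by replicate 2 alone kept 6 of the 10 strongest regions, and ranking by the combined-list score kept 8. No paired analysis was possible because the input libraries had no list, so no groups were compared.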

Other observations

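Values that belong to no comparison above are the following, all chosen after the data were examined. On a grid of 215 windows of 100 kb, replicate 1 had no region in 11 windows and replicate 2 in 10, and 4 windows were empty in both. Each of those 4 held regions of the combined list, 13 in all, and no window was empty in the combined list (0 of 215). The densest window of either replicate held 17 regions.

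Regions separated by gaps of at most 2 kb formed runs. In replicate 1, 19 runs held at least 4 regions and the longest had 6, from 1637405 to 1657594, inside the densest bin. In replicate 2 there were 25 such runs and the longest had 5, from 1295377 to 1314998. In the combined list the longest run had 17 regions over 78.3 kb, from 1729890 to 1808170. No neighbour was that close for 54.5% of the regions of replicate 1 and 53.9% of those of replicate 2.

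The parts of 3L outside the stretch differed from each other. The telomere-side 1 Mb held 68 regions in replicate 1 and 75 in replicate 2, and the centromere-side 2.04 Mb held 43 and 59.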
